A study of Rattus norvegicus with 36 samples.

Results

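Aortas of S2Ba congenic rats were compared with aortas of SS rats, both kept on a high salt diet, by total RNA sequencing of 10 libraries, 5 of each strain, out of 34 libraries with values in the series. SS is the Dahl salt-sensitive rat, an inbred strain in which dietary salt raises blood pressure. S2Ba carries the distal portion of chromosome 2 from the Brown Norway (BN) strain on the SS background, so that the SS genome outside that portion is shared by both groups, as far as the congenic breeding went. All animals were male, started the diet at 4 to 6 weeks of age and were taken at 12 to 13 weeks, and the high salt diet held 4% NaCl. RNA came from a piece of frozen thoracic descending aorta, a bulk tissue of smooth muscle, endothelium and adventitia, and libraries were made from total RNA. The series also holds S2Ba and SS rats on a normal salt diet (6 libraries each), and a second congenic strain, S2Bb, with a middle segment of BN chromosome 2 on either diet (6 libraries each). The labels name 6 samples in each group, and 1 S2Ba and 1 SS sample on high salt were not analysed here. The libraries used are S2Ba replicates 1, 3, 4, 5 and 6 and SS replicates 1, 2, 4, 5 and 6, and values below are listed in that order. The labels do not say in so many words that each library is a separate animal, so p-values measure the spread between libraries. That spread was estimated within the 6 groups over all 34 libraries, not from these 10 alone.

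In a congenic rat, genes inside the exchanged segment carry donor alleles and can differ through their own regulatory sequence, whereas genes elsewhere can differ downstream of the segment or through leftover donor DNA. Salt loading of SS rats is known to injure the arterial wall, with recruitment of macrophages and T cells, display of antigens on major histocompatibility complex class II molecules, matrix deposition and production of the vasoconstrictor endothelin. The vessel wall also keeps a circadian clock, in which the Arntl-Clock activator drives Per, Cry, Nr1d and Dbp genes that peak in another part of the day, so that aortas taken at different hours differ in these genes whatever their genotype. The comparison addresses which aortic transcripts differ when the distal BN segment replaces the SS one under salt loading.

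Depth was alike in both groups, at 11106259 to 13004721 reads assigned to genes in S2Ba and 11667349 to 13483126 in SS. Smooth muscle defined the tissue in both groups. Myh11, the smooth muscle myosin heavy chain, stood at a normalised read value of 8095 to 9982.5 in S2Ba and 9251 to 10923 in SS. The endothelial marker Vwf lay between 197 and 391 in S2Ba and between 151 and 293 in SS, and Cd3e of T cells between 0 and 0.974 and between 0 and 0.816. All levels are the authors' normalised read values, which are reads divided by 1 size factor per library. Differences were taken after adding 0.5 and converting to log2, so genes near 0 change by more than their log2 difference shows.

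The libraries differed in circadian phase, and this moved with strain. A first component of the 22 tested clock genes, which took 69.5% of their variance over the 34 libraries, was -0.80, 1.78, 2.13, -3.18 and -3.83 in the S2Ba libraries. It was -2.93, 8.67, 8.58, 6.99 and 5.08 in the SS libraries. SS replicate 1 therefore stood among the S2Ba libraries and the other 4 SS libraries stood above all 5 S2Ba libraries. On normal salt no S2Ba or SS library was above 0, so in SS phase also moved with diet, SS replicate 1 excepted. Salt changes within a strain, given below for some genes, come from the fit without clock covariates. They use these same high salt libraries. The hour of collection is not in the labels, and strain and phase cannot be told apart in this comparison. SS replicate 1 is only 1 library. A fit with the first 2 clock components as covariates assumes the same linear slope in every group. As 4 SS libraries lie outside the S2Ba range, that fit cannot separate strain from phase and shows only how far a call depends on these components. Each called gene described below, other than the clock genes themselves, is therefore given with its adjusted p from that fit.

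Arntl (Bmal1), the activator subunit of the clock, had values of 50.4, 40.3, 17.4, 75.4 and 76.8 in S2Ba and 74.3, 2.43, 4, 6.77 and 11.4 in SS. The log2 difference (S2Ba minus SS) was 2.26 ± 0.69 (SE) with an adjusted p of 0.0824 by limma, over groups that overlapped. Among genes of the opposite phase, Dbp, a transcription factor driven directly by Arntl-Clock, read 14.4, 29.1, 30.2, 6.37 and 2.53 in S2Ba and 5.28, 196, 210.1, 150.2 and 96.5 in SS, for a log2 difference of -2.72 ± 0.89 (SE) and an adjusted p of 0.104. The other 4 SS libraries were high for Dbp and low for Arntl, while SS replicate 1 had the pattern of S2Ba replicates 5 and 6. Per3, a period gene of the repressor arm, read 18.5, 25.9, 43.6, 11.2 and 7.92 in S2Ba and 13.1, 147, 108, 88.5 and 64.9 in SS, with the same split (log2 difference -1.84, adjusted p 0.0836).

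Of the 22 clock genes tested, 2 passed the threshold of an adjusted p under 0.05, against 1.73% of all genes, and both were lower in S2Ba. Ciart, a repressor of the Arntl-Clock activator that lies on chromosome 2, read 0.325, 1.3, 0.666, 0 and 0.0842 in S2Ba and 0.0787, 14.05, 13.3, 9.82 and 3.24 in SS, a log2 difference of -2.62 ± 0.67 (SE, adjusted p = 0.0372). Hlf, a PAR bZIP factor like Dbp, read 0.811, 0.648, 1.33, 1.14 and 1.09 in S2Ba and 1.5, 6.3, 5.63, 3.05 and 2.9 in SS, a log2 difference of -1.43 ± 0.39 (adjusted p = 0.0492). SS replicate 1 lay at the S2Ba level for Ciart, where the groups overlapped, and just above it for Hlf, where they did not. Ciart was called in 2 and Hlf in 2 of the 10 fits that each left out 1 library, with adjusted p from 0.0529 to 0.132 for Ciart in the 8 other fits. Both are among the genes from which the clock components were computed, so the fit with those components is no test of them. The positive arm held 0 calls of 4 genes, with a median log2 difference of 0.39, the negative arm 1 of 10 with a median of -1.27, and the output genes 1 of 8 with a median of -0.58, beside a median of -0.0046 over all genes tested. Without SS replicate 1, 1 gene of the positive arm was higher in S2Ba, and 3 of the negative arm and 3 output genes were lower.

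The 250 bases before the start of Ciart are printed because it was the clock gene called on chromosome 2 and because they hold the sequence that Arntl-Clock is known to bind. They come from RefSeq on build GRCr8, an assembly of the BN strain, at chr2:186112247-186112496 on the minus strand. Capitals mark the E-box CACGTG, a palindrome that reads the same on both strands.
Ciart: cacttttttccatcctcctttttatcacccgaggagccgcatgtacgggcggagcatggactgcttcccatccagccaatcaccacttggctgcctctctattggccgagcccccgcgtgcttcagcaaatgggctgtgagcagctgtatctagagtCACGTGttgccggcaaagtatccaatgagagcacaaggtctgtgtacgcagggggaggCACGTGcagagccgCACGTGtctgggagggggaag
The E-box occurred 3 times, with first bases 93, 35 and 21 before the start. It was present in the same window of 5 of the 19 tested clock genes that have a sequence, namely Nr1d1, Ciart, Bhlhe40, Bhlhe41 and Tef, and in 5.59% of 33469 RefSeq upstream windows of that length.

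**Figure D1:**
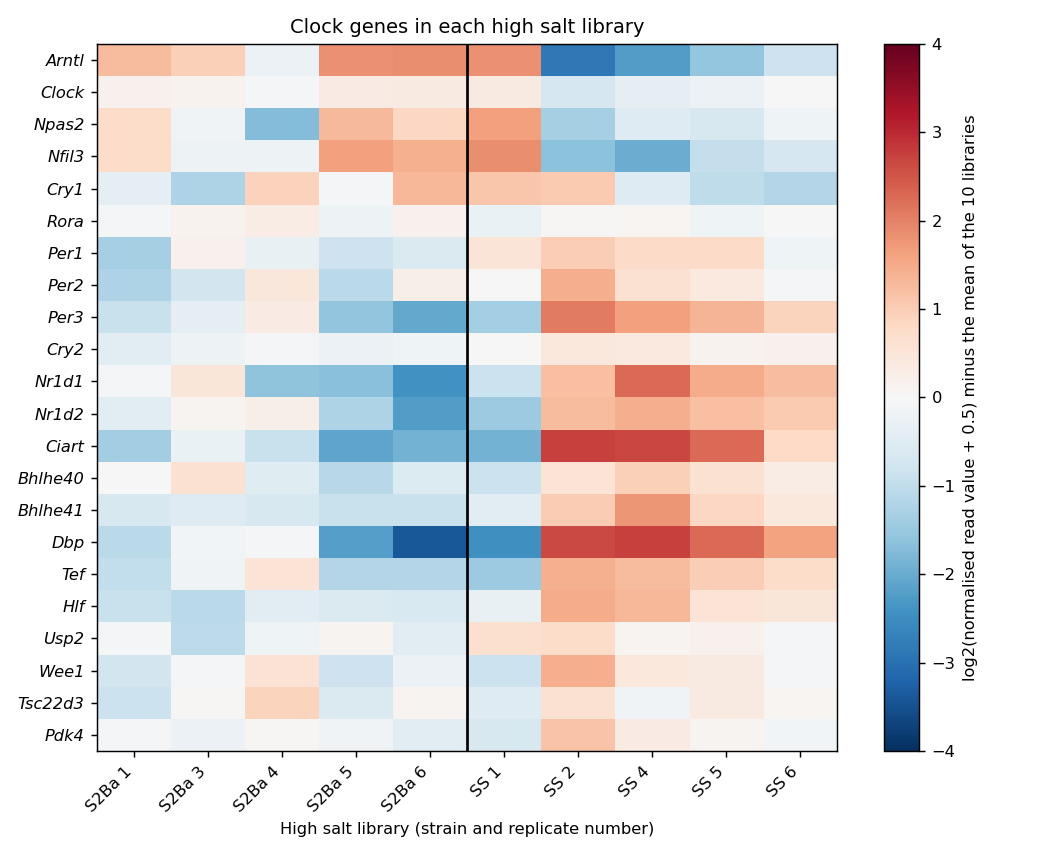
Log2(normalised read value + 0.5) of the 22 tested clock genes (rows) in the 10 high salt libraries (columns, S2Ba left of the line and SS right of it), less the mean of the 10 libraries, with red above and blue below that mean. SS replicates 2, 4, 5 and 6 are blue for Arntl and red for Dbp, Per3 and Ciart, and SS replicate 1 has the colours of S2Ba replicates 5 and 6.

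Across the 13475 genes whose mean value reached 0.5, 233 genes (1.73%) differed between S2Ba and SS on high salt at an adjusted p under 0.05 by limma, 102 higher (0.757%) and 131 lower (0.972%) in S2Ba. The larger number of lower calls did not hold under upper quartile scaling (104 higher, 96 lower) or by edgeR (114 and 112), and with TMM scaling it was 103 higher and 107 lower. Among those with the smallest adjusted p, Ccdc109b and Slc39a8 of distal chromosome 2 were higher in S2Ba, and Slc9b1, Ddah1 and Adh7 of the same stretch were lower. Off chromosome 2, the class II antigen presentation genes RT1-Db1 and Cd74, Mybl1, Edn1 and Spp1 were higher, and Ddi2, Myo19, Atp6v0a4 and Tnxb lower. A change of at least 2-fold was reached by 65 of the 233 genes, 30 higher and 35 lower. The 5 libraries of each strain did not overlap for 173 of the 233 called genes and for 721 (5.35%) of all genes tested. Counts of called members of the gene lists below are to be read beside the 1.73% called over all genes.

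The count changed when single libraries were left out and when the clock components, which moved with strain, entered the fit. It was 158, 98, 47, 448 and 129 without S2Ba replicate 1, 3, 4, 5 or 6, and 187, 95, 61, 130 and 129 without SS replicate 1, 2, 4, 5 or 6. Of the 233 genes, 38 were called in all 10 of these fits, 9 of them on chromosome 2. With the first 2 clock components as covariates 16 genes were called, 15 of them among the 233, and the sign was kept for all 233. These genes were called in the same libraries, so a kept sign is no independent support for them. The median absolute log2 difference of the 233 was 0.746 without and 0.636 with the covariates, while the standard error with them was, at the median over all genes tested, 1.15 times that without them. Among the 15 genes called in both fits were Ccdc109b, Ddah1, Ddi2, Slc39a8, Slc9b1, Ccnd1, RT1-Db1, Adh7, Mybl1, Meis1, Myo19, Atp6v0a4, Mal and Cd74.

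Chromosome 2 held 30 of the 233 called genes, 3.68% of its 816 tested genes, against 1.69% of the 11490 tested genes placed on other chromosomes. The share called was larger toward the distal end. Of the last 164 tested genes in RefSeq order, 13 (7.93%) were called, 6 higher and 7 lower, and in the 652 genes before them 17 (2.61%). The last 82 of them, from Manba to Wls, held 9: Slc39a8, Ddit4l, Adh7, Unc5c, Hs2st1, Ddah1, Syde2, Ptgfr and Lrrc7. The 82 before those held Fam102b, Plppr4, Ccdc109b and Slc9b1. The labels do not give the limits of the exchanged segment, and gene order is from another source than the authors' annotation, so which of these genes lie inside it is not stated here. All 5 chromosome 2 genes called with clock covariates are among these 164.

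Ccdc109b encodes the inhibitory pore subunit of the mitochondrial calcium uniporter (MCUb), and it had the smallest adjusted p of the comparison. Its values were 6.25, 7.77, 6.33, 5.41 and 7.5 in S2Ba and 1.18, 1.52, 1.55, 1.65 and 0.682 in SS. No S2Ba library came near the SS range, and the log2 difference was 2.00 ± 0.22 (SE), a 4-fold higher level on that scale (adjusted p = 2.08e-06, 0.000485 with clock covariates). On normal salt the means were 5.03 ± 1.03 (SD, n = 6) in S2Ba and 1.73 ± 0.409 (SD, n = 6) in SS, and S2Bb rats on high salt, which carry the other segment, had 2.16 ± 1.09 (SD, n = 6).

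Slc39a8 encodes ZIP8, a plasma membrane importer of zinc and manganese. It read 10.9, 6.48, 8.24, 6.81 and 6.99 in S2Ba and 3.31, 2.89, 3.02, 4.38 and 4.09 in SS. Every S2Ba library exceeded every SS library, with a log2 difference of 1.05 ± 0.16 (adjusted p = 0.000361, 0.00294 with clock covariates). Its neighbour in this part of the chromosome, Slc9b1, which encodes a sodium-proton exchanger of the NHA family, moved the other way. Slc9b1 read 2.03, 1.86, 1.83, 1.22 and 1.52 in S2Ba and 4.17, 4.56, 4.98, 4.54 and 3.84 in SS, a log2 difference of -1.17 ± 0.16 (adjusted p = 4.81e-05, 0.00294 with clock covariates). The lowest SS library was above the highest S2Ba library by more than the range within either group.

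Ddah1 breaks down asymmetric dimethylarginine, the body's own inhibitor of nitric oxide synthases. Its values were 12.98, 9.07, 6.58, 18.5 and 14.4 in S2Ba and 37.2, 31.5, 38.7, 31.5 and 41.9 in SS. S2Ba lay below SS in every library, with a log2 difference of -1.59 ± 0.22, or a 3.01-fold lower level (adjusted p = 6.26e-05, 0.000818 with clock covariates). It fell with salt in S2Ba (log2 change -1.07, adjusted p 0.000632), while in SS the change was -0.48 (adjusted p 0.145), and both contrasts share their high salt libraries with the strain comparison. The difference between the 2 salt responses had an adjusted p of 0.513.

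Adh7, the class IV alcohol dehydrogenase that oxidises retinol, was close to 0 in S2Ba. It read 0, 0.162, 0, 0.175 and 0 in S2Ba and 1.42, 0.987, 2.37, 2.89 and 2.9 in SS, and the S2Ba libraries together held 4 reads against 129 in SS. The log2 difference was -2.14 ± 0.31 (adjusted p = 0.000145, 0.0181 with clock covariates), and on normal salt all 6 S2Ba libraries were at 0 while the SS mean was 1.96 ± 0.971 (SD, n = 6). S2Bb rats on high salt had 2.33 ± 1.33 (SD, n = 6). Of the 19 tested genes of retinoid and aldehyde metabolism 1 passed, Adh7, beside 1.73% of all genes, and the list median was -0.19.

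A further set of distal genes differed on high salt while their normal salt difference did not pass. Hs2st1, which adds the 2-O-sulfate of heparan sulfate, read 27.9, 32.9, 39.6, 22.5 and 33.9 in S2Ba and 19.1, 24.1, 19.2, 19.2 and 18.8 in SS. The log2 difference was 0.61 ± 0.13 (adjusted p = 0.012), with SS replicate 2 inside the S2Ba range. The call was lost without S2Ba replicate 4 (adjusted p 0.0562) and with clock covariates (adjusted p 0.0862), and on normal salt the difference was 0.09 (adjusted p 0.762).

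Ddit4l (REDD2), an inhibitor of mTOR signalling, read 5.03, 8.18, 4.58, 2.27 and 4.38 in S2Ba and 1.26, 1.29, 1.96, 1.49 and 2.56 in SS, a log2 difference of 1.23 (adjusted p = 0.00955, 0.123 with clock covariates). Lrrc7, a scaffold protein of neuronal synapses, read 2.19, 1.62, 2.58, 1.48 and 1.68 in S2Ba and 0.394, 1.14, 0.653, 0.165 and 0.852 in SS, a log2 difference of 1.13 (adjusted p = 0.00729, 0.0862 with clock covariates). Unc5c, a netrin receptor, read 1.79, 0.648, 1.83, 4.02 and 1.85 in S2Ba and 6.69, 5.54, 6.12, 6.03 and 11.1 in SS, a log2 difference of -1.68 (adjusted p = 0.035, 0.319 with clock covariates). The strains did not overlap for Lrrc7 and Unc5c and overlapped for Ddit4l. Unc5c passed in 1 of the 10 fits without a library and Lrrc7 in all 10.

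Enpep, the aminopeptidase that converts angiotensin II to angiotensin III, lies in the same stretch and did not pass on high salt. It read 48.4, 77.4, 71.1, 34.4 and 40.1 in S2Ba and 66.2, 56.9, 73.2, 68.9 and 67.6 in SS, and the groups overlapped (log2 difference -0.36, 95% interval -0.84 to 0.13, adjusted p = 0.465). On normal salt Enpep was lower in S2Ba, with means of 16.01 ± 4.4 (SD, n = 6) in S2Ba and 49.9 ± 4.16 (SD, n = 6) in SS and a log2 difference of -1.65 (adjusted p = 3.9e-05). Salt raised Enpep in S2Ba by 1.70 on the log2 scale (adjusted p = 1.6e-05) and the SS change was 0.41 (adjusted p = 0.262), yet the test of the difference between diets gave an adjusted p of 0.252.

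Proximal to this stretch, Rasa1, which switches off Ras, read 114, 120.0, 124, 94.9 and 121 in S2Ba and 75.6, 76.99, 84.1, 80.004 and 88.996 in SS, with no overlap and a log2 difference of 0.49 (adjusted p = 0.00454, 0.104 with clock covariates). Gucy1a3, the alpha subunit of the nitric oxide receptor guanylate cyclase, read 142, 149, 147, 203 and 164 in S2Ba and 196, 252, 272, 235 and 247 in SS, a log2 difference of -0.58 (adjusted p = 0.0399, 0.534 with clock covariates), and the groups overlapped. Frem2, an extracellular matrix protein of basement membranes, read 0.406, 0.162, 0.0833, 1.4 and 0.842 in S2Ba and 1.81, 1.82, 2.04, 1.49 and 2.56 in SS, a log2 difference of -1.31 (adjusted p = 0.0289, 0.333 with clock covariates). None of the 3 held with the clock components in the fit, and of the 10 fits without a library Rasa1 passed in 10, Gucy1a3 in 2 and Frem2 in 4.

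**Figure D2:**
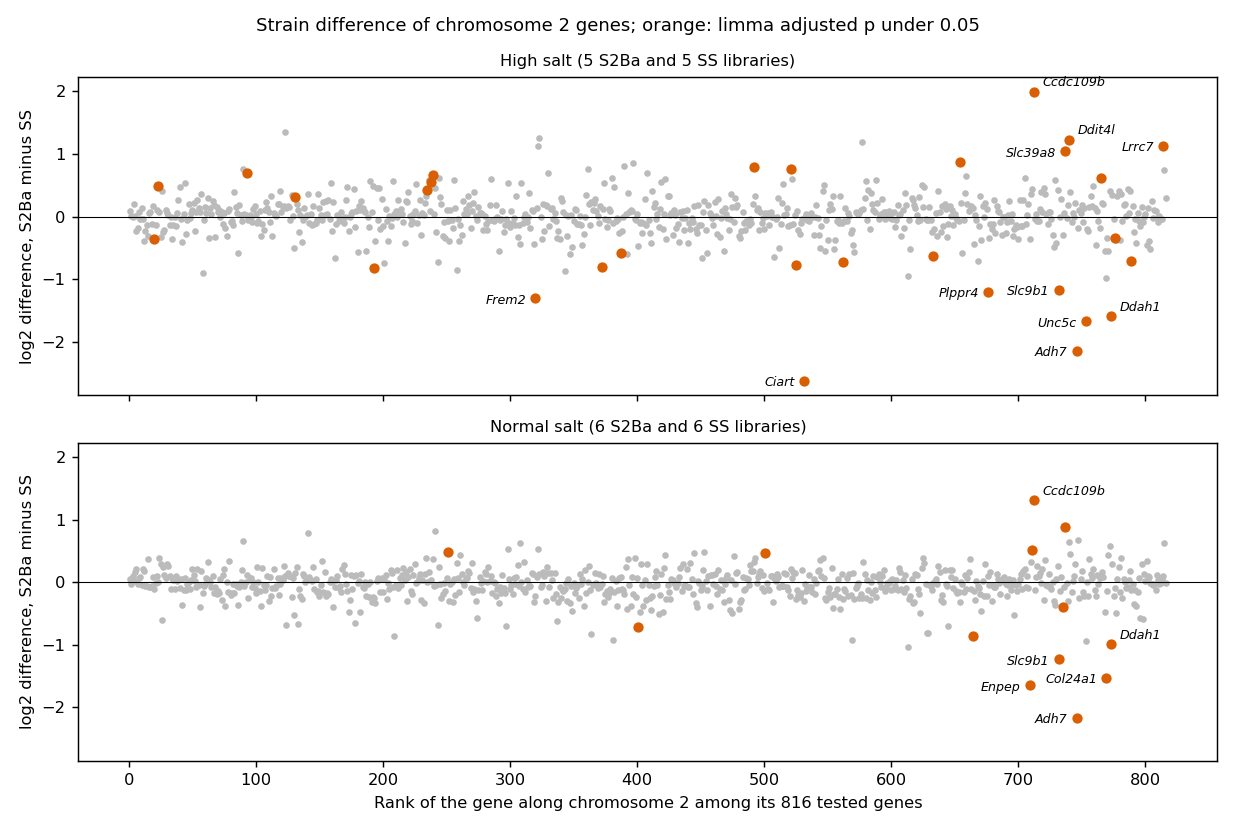
Log2 difference (S2Ba minus SS) of the 816 tested chromosome 2 genes by their rank along the chromosome, on high salt (top, 5 and 5 libraries) and normal salt (bottom, 6 and 6 libraries), with genes at an adjusted p under 0.05 in orange. The 13 called genes among the last 164 on high salt reach from Adh7 at -2.14 to Ccdc109b at 2.00, and Ccdc109b, Slc39a8, Slc9b1, Adh7 and Ddah1 are orange in both panels.

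**Figure D3:**
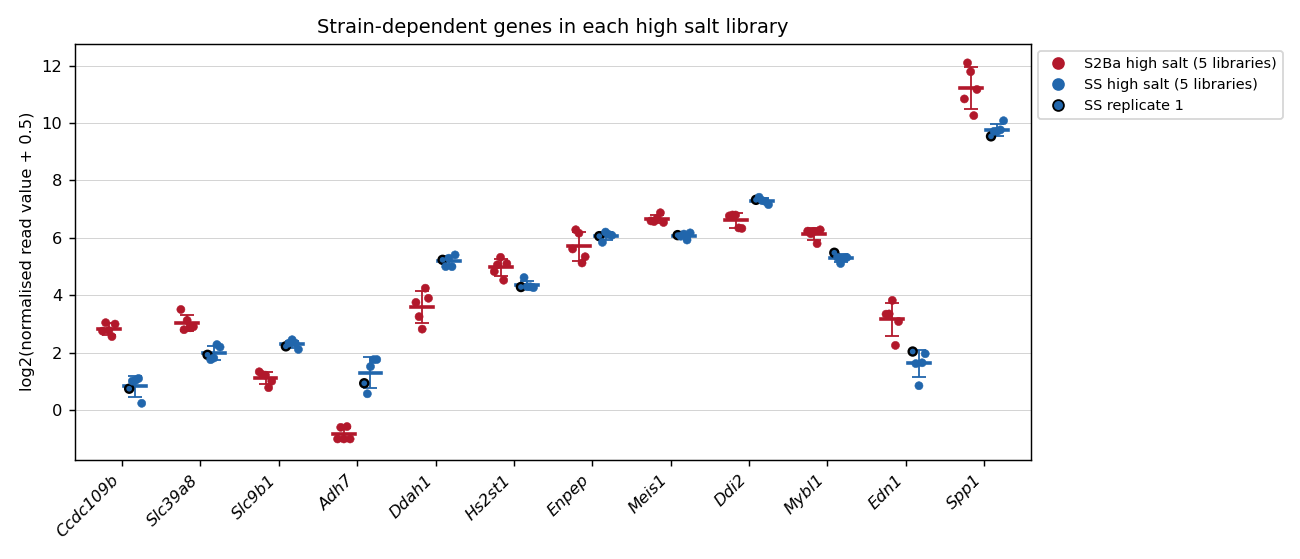
Log2(normalised read value + 0.5) of 12 genes in each high salt library, S2Ba in red and SS in blue, with SS replicate 1 outlined in black, a bar at the mean and a whisker of 1 SD. Ccdc109b, Slc39a8, Slc9b1, Adh7 and Ddah1 separate the strains completely, SS replicate 1 included, whereas Enpep overlaps.

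Away from chromosome 2, Ddi2 had the smallest adjusted p. It encodes a protease that activates the transcription factor Nfe2l1, and read 108, 111, 111, 80.9 and 79.9 in S2Ba and 159.8, 170.2, 157, 154 and 142 in SS. All S2Ba libraries were below all SS libraries (log2 difference -0.69 ± 0.09, adjusted p = 4.58e-05, 0.00294 with clock covariates). Meis1, a homeobox transcription factor, read 95.8, 94.4, 102, 117 and 92.3 in S2Ba and 67.9, 66.1, 69.6, 60.3 and 71.7 in SS, higher in every S2Ba library by 0.57 ± 0.10 on the log2 scale (adjusted p = 0.00181, 0.0224 with clock covariates). Both genes differed in the same direction on normal salt, by -0.37 (adjusted p 0.0352) for Ddi2 and 0.78 (adjusted p 3.52e-06) for Meis1.

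Mybl1, a Myb-family transcription factor, was higher in S2Ba on high salt. It read 74.8, 70.2, 74.5, 55.2 and 77.2 in S2Ba and 44.2, 39.4, 33.96, 38.9 and 39.5 in SS, a log2 difference of 0.83 ± 0.12 (adjusted p = 0.000145, 0.0188 with clock covariates), with no overlap. On normal salt its means were 41.2 ± 6.21 (SD, n = 6) and 40.1 ± 4.37 (SD, n = 6), and salt raised it in S2Ba (log2 change 0.77, adjusted p 5.14e-05), with a change of -0.03 in SS (adjusted p 0.89). Myo19, a myosin that moves mitochondria, was the reverse case, reading 19.1, 15.6, 16.2, 15.3 and 15.3 in S2Ba and 29.1, 28.9, 45.1, 20.6 and 29.7 in SS. Its lower level in S2Ba (log2 difference -0.85 ± 0.14, adjusted p = 0.000597, 0.0224 with clock covariates) went with a salt change of 0.90 in SS (adjusted p 0.000186) and of -0.10 in S2Ba (adjusted p 0.641). These salt changes share the high salt libraries on which the genes were called, and the part of phase in them was not tested. The interaction of strain and diet had an adjusted p of 0.106 for Mybl1 and of 0.0679 for Myo19, the smallest of all genes, so neither passed.

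Genes with lower levels in S2Ba included Atp6v0a4, a subunit of the proton pump known from the kidney collecting duct. It read 0.974, 0.243, 0.416, 1.66 and 1.94 in S2Ba and 5.35, 5.47, 5.88, 3.39 and 5.03 in SS, a log2 difference of -1.96 ± 0.33 (adjusted p = 0.00181, 0.024 with clock covariates), with no overlap. Tnxb, the matrix protein tenascin X, read 104, 68.2, 123, 129.9 and 123 in S2Ba and 336, 260.2, 312, 254 and 204 in SS, a 2.51-fold lower level (adjusted p = 0.00233, 0.0757 with clock covariates). Sord, sorbitol dehydrogenase of the polyol pathway, read 22.7, 21.6, 26.2, 22.4 and 20.4 in S2Ba and 26.2, 36.4, 36.4, 36.7 and 41.003 in SS, a log2 difference of -0.62 (adjusted p = 0.00181, 0.0976 with clock covariates). Tnxb and Sord passed in all 10 fits without a library but not with the clock components.

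Adam33, a membrane metalloprotease, read 60.5, 55.2, 46.6, 71.5 and 48.3 in S2Ba and 91.9, 102, 119, 96.2 and 89.3 in SS, a log2 difference of -0.83 (adjusted p = 0.00428, 0.104 with clock covariates). No library crossed into the range of the other strain.

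Among genes higher in S2Ba, Adcyap1r1, the receptor for the peptide PACAP, read 6.9, 6.56, 2.91, 6.2 and 6.57 in S2Ba and 1.57, 0.987, 1.47, 1.9 and 1.53 in SS, a log2 difference of 1.63 ± 0.31 (adjusted p = 0.00454, 0.141 with clock covariates). Mal, a membrane raft protein of myelin, epithelia and T cells, read 9.49, 15.1, 10.99, 4.54 and 8.51 in S2Ba and 3.7, 3.04, 2.53, 4.21 and 3.07 in SS, a log2 difference of 1.35 ± 0.25 (adjusted p = 0.00454, 0.0281 with clock covariates). Both kept the strains apart in all 10 libraries. Ccnd1, cyclin D1 of the G1 phase, had a log2 difference of 0.79 (adjusted p = 0.0281) and one of 1.12 with clock covariates (adjusted p = 0.00299), and it was called in 5 of the 10 fits without a library.

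Genes of antigen presentation by class II molecules were higher in S2Ba. Of the 15 tested antigen presentation genes, 5 were called higher and 0 lower, beside 0.757% of all genes called higher, and the median log2 difference of the list was 0.22. The 5 were RT1-Db1, RT1-Da, RT1-Ba and RT1-Bb, which encode the beta and alpha chains of the rat class II molecules RT1-D and RT1-B, and Cd74, the invariant chain that escorts them. All 15 had a positive log2 difference, also under upper quartile and TMM scaling. The count of 5 became 2 without S2Ba replicate 4 or SS replicate 2, 3 without SS replicate 4 or 6, and 2 with clock covariates. The genes of class I presentation did not pass: B2m, the light chain of class I molecules, had a log2 difference of 0.35 (adjusted p = 0.135) and RT1-A2, a class I heavy chain, one of 0.20 (adjusted p = 0.379).

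RT1-Db1 read 43.1, 29.95, 54.5, 47.2 and 33.9 in S2Ba and 20.001, 13.4, 17.1, 25.7 and 17.2 in SS, with every S2Ba library above every SS library (log2 difference 1.14 ± 0.18, adjusted p = 0.000597, 0.00636 with clock covariates). Cd74 read 216, 126, 270.2, 219 and 149.8 in S2Ba and 131, 67.3, 86.9, 123 and 82.1 in SS, a 1.98-fold higher level on the log2 scale used (adjusted p = 0.00454, 0.0498 with clock covariates), and S2Ba replicate 3 fell within the SS range. RT1-Da read 66.7, 42.2, 88.6, 87.2 and 51.4 in S2Ba and 46.9, 20.4, 32.1, 44.01 and 25.1 in SS (log2 difference 1.00 ± 0.21, adjusted p = 0.0128). SS replicate 1 and replicate 5 were the highest SS libraries for RT1-Da and stood above S2Ba replicate 3.

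RT1-Ba read 56.5, 36.7, 70.96, 66.9 and 43.4 in S2Ba and 39.6, 21.6, 26.9, 42.8 and 21.3 in SS (log2 difference 0.86, adjusted p = 0.0175). RT1-Bb read 57.05, 32.4, 71.04, 66.8 and 38.6 in S2Ba and 41.5, 19.7, 27.3, 39.96 and 22.8 in SS (log2 difference 0.80, adjusted p = 0.034). S2Ba replicates 4 and 5 were the highest libraries for all 4 chains, and SS replicate 1 or 5 the highest of the SS libraries. RT1-Da was lost without S2Ba replicate 4 (adjusted p 0.0557) or SS replicate 2 (0.0537), RT1-Ba without any 1 of 4 libraries (adjusted p up to 0.069) and RT1-Bb without any 1 of 6 (up to 0.124), and with clock covariates their adjusted p was 0.0862, 0.0862 and 0.238. Class II genes belong to a family of near copies, among which reads can be divided differently by allele, so that single values are uncertain. Ciita, the master activator of class II genes, read 6.65, 4.78, 7.16, 7.34 and 5.64 in S2Ba and 7.01, 4.33, 3.76, 7.51 and 4.35 in SS, a log2 difference of 0.24 that did not pass (adjusted p = 0.563).

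The upstream sequences of the 4 chains are printed because these genes were called in the same direction and share a promoter element. Each is 250 bases ending just before the start, from RefSeq on build GRCr8, in the direction of transcription. They lie at chr20:4515165-4515414 on the plus strand for RT1-Da, chr20:4560163-4560412 on the minus strand for RT1-Db1, chr20:4576807-4577056 on the plus strand for RT1-Ba and chr20:4604119-4604368 on the minus strand for RT1-Bb. Capitals mark the Y box core CTGATTGG, the NF-Y site of the class II promoter module, searched on both strands.
RT1-Da: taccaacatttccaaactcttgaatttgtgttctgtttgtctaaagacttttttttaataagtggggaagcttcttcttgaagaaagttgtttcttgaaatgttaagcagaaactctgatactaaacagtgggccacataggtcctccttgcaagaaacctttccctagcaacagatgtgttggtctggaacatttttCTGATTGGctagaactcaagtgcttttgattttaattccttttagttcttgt
RT1-Db1: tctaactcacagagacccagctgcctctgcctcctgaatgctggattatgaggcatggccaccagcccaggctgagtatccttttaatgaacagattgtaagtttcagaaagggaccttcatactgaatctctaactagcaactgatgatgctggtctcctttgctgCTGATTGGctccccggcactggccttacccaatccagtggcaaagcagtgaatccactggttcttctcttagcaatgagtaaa
RT1-Ba: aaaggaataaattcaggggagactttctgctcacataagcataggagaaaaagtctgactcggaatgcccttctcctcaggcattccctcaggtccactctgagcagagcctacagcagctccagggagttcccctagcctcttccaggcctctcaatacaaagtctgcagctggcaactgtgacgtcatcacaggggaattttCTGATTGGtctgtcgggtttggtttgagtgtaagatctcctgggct
RT1-Bb: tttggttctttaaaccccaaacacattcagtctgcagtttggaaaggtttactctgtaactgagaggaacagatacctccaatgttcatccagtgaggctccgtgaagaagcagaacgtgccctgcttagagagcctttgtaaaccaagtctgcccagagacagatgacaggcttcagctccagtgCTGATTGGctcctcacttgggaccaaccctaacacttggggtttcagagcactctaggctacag
The Y box was found once in each, its first base 52 (RT1-Da), 83 (RT1-Db1), 46 (RT1-Ba) and 64 (RT1-Bb) bases before the start. It was in 5 of the 13 antigen presentation genes with a sequence and in 3.19% of 33469 RefSeq windows of the same length.

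Macrophages carry class II molecules, and their markers were set beside these genes. The summed level of the list was 559.7 to 1267 in S2Ba (median 724) and 433 to 699 in SS (median 508), and all 18 tested markers had a positive log2 difference, with a median of 0.48. Cd14, the co-receptor for bacterial lipopolysaccharide, was the 1 call among them. Cd14 read 15.7, 19.7, 24.2, 11.5 and 12.1 in S2Ba and 9.21, 9.49, 10.04, 9.66 and 12.5 in SS (log2 difference 0.63, adjusted p = 0.0358, 0.238 with clock covariates), and it was lost without any 1 of 7 libraries. Without S2Ba replicate 4 the list median was 0.24 with 17 of 18 positive and 0 called, and with clock covariates 0.42 with 18 positive and 0 called. Adgre1 (F4/80), a macrophage surface receptor, read 33.2, 22.7, 39.2, 38.9 and 22.2 in S2Ba and 27.1, 11.5, 17.1, 26.01 and 20.7 in SS (adjusted p = 0.0736), and C1qa of complement read 63.8, 34.1, 93.8, 42.6 and 35.04 in S2Ba and 33.5, 22.9, 28.5, 41.2 and 26 in SS (adjusted p = 0.0948). In bulk tissue more cells of a type and more RNA per cell cannot be told apart, and the part of macrophages in the class II difference was not tested.

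Other leukocyte lists were thin. Summed levels of T and NK cell markers were 25.4 to 65.1 in S2Ba and 27.9 to 43.1 in SS, with 0 of 5 tested genes called, and mast cell markers had 0 of 3. Of 3 tested B cell markers 1 was called, the kinase Blk, which was lower in S2Ba. The other 2 had positive log2 differences, and the list median was 0.09. Summed levels of the B cell list were 24.4 to 36.7 in S2Ba and 25.5 to 30.9 in SS. Blk read 0.162, 0.081, 0, 0 and 0 in S2Ba and 0.63, 0.759, 1.63, 0.661 and 1.7 in SS, or 3 reads in all S2Ba libraries together against 66 in SS (log2 difference -1.47, adjusted p = 0.00509, 0.0871 with clock covariates). The S2Ba libraries were at or next to 0 for this gene.

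**Figure D4:**
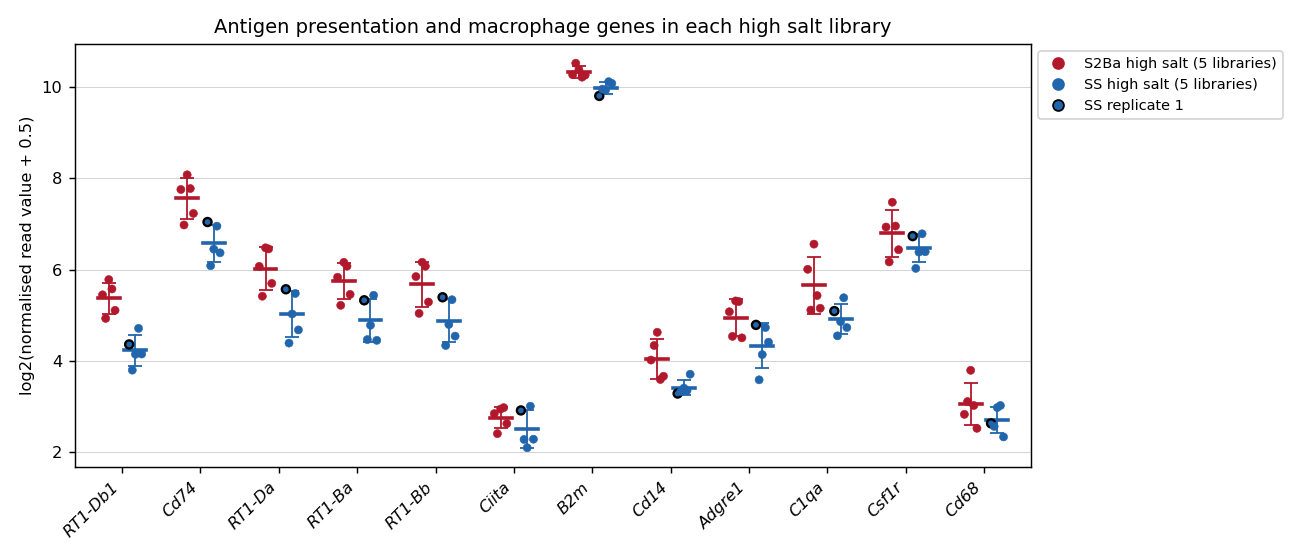
Log2(normalised read value + 0.5) of 7 antigen presentation genes (left) and 5 macrophage markers (right) in each high salt library, S2Ba in red and SS in blue, with SS replicate 1 outlined in black, a bar at the mean and a whisker of 1 SD. RT1-Db1 separates the strains, the other class II chains and Cd74 are higher in S2Ba with overlap, and the macrophage markers are shifted the same way with wider overlap.

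Among vasoactive peptide genes, Edn1, the precursor of endothelin 1, was higher in S2Ba. It read 9.66, 9.71, 13.7, 4.28 and 8 in S2Ba and 3.62, 2.58, 1.31, 2.64 and 3.41 in SS, with all S2Ba libraries above all SS libraries and a log2 difference of 1.55 ± 0.29 (adjusted p = 0.00509, 0.156 with clock covariates). Salt raised Edn1 in S2Ba (log2 change 1.75, adjusted p 0.000104) with a change of 0.12 in SS (adjusted p 0.831), and the interaction had an adjusted p of 0.252. It was the 1 call among 14 tested renin-angiotensin and endothelin genes, whose median was -0.07. The endothelin receptors Ednra and Ednrb had log2 differences of -0.29 (adjusted p 0.426) and 0.37 (adjusted p 0.486).

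Of 19 tested genes of inflammation and adhesion, 1 passed, beside 1.73% of all genes. Selp, the P-selectin of activated endothelium, read 6.98, 8.26, 14.2, 5.41 and 12.3 in S2Ba and 6.61, 1.97, 1.22, 6.61 and 2.81 in SS, a log2 difference of 1.34 ± 0.31 (adjusted p = 0.0195, 0.386 with clock covariates). SS replicates 1 and 5 lay inside the S2Ba range, and the call was lost without any 1 of 4 libraries. Il1b had a log2 difference of 0.91 (adjusted p 0.092), Icam1 of 0.29 (0.168) and Vcam1 of 0.17 (0.677), none of which passed.

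Among 40 tested matrix genes 2 were called, both higher in S2Ba, beside 0.757% of all genes called higher, and the list median was 0.02. Spp1, the phosphoprotein osteopontin of injured arteries, read 1828, 4364, 3528, 1223 and 2297 in S2Ba and 741, 838, 836, 866 and 1081 in SS, with every S2Ba library above the SS range (log2 difference 1.47 ± 0.30, adjusted p = 0.0101, 0.218 with clock covariates). Timp1, an inhibitor of matrix metalloproteinases, read 71.4, 102, 91.4, 52.7 and 71.7 in S2Ba and 43.1, 40.1, 43.8, 51.4 and 48.6 in SS (log2 difference 0.74, adjusted p = 0.0381, 0.336 with clock covariates). S2Ba replicate 3 was the highest library for both genes and replicate 5 the lowest of its strain. Spp1 was lost without S2Ba replicate 4 (adjusted p 0.0529), and Timp1 passed in 1 of the 10 fits without a library. Fibronectin, Fn1, had a log2 difference of 1.14 (adjusted p 0.0595) and the collagen Col1a1 one of -0.83 (adjusted p 0.138).

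In heparan sulfate metabolism 2 of 16 tested genes passed, beside 1.73% of all genes. They were Hs2st1, described above, and Sulf1, which removes 6-O-sulfates at the cell surface. Sulf1 read 273, 369, 363, 218 and 321 in S2Ba and 198, 175, 179, 199 and 191 in SS, with no overlap (log2 difference 0.69 ± 0.14, adjusted p = 0.0106, 0.238 with clock covariates), and was lost without S2Ba replicate 4 (adjusted p 0.0535). The list median was 0.06. In nitric oxide and cGMP signalling 2 of 16 were called, Ddah1 and Gucy1a3, both lower, beside 1.73% of all genes. The others, Nos3 of the endothelium among them (log2 difference -0.29, adjusted p 0.576), did not pass.

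The contractile genes of smooth muscle gave 0 calls of 22, with 3 positive log2 differences and a median of -0.12, and 6 positive under upper quartile or TMM scaling. Myh11 differed by -0.26 (adjusted p 0.314) and Acta2, smooth muscle actin, by -0.36 (adjusted p 0.306). Potassium and calcium channels gave 0 calls of 34, oxidant and antioxidant genes 0 of 25, respiratory chain genes 0 of 27, interferon response genes 0 of 28 and immediate early genes 0 of 20. Over all genes 1.73% were called, so 0 calls in lists of this length are near that share. Positive log2 differences were held by 11, 21, 18, 22 and 4 genes of these lists in that order, beside 6607 of all 13475. Of 18 sodium transport genes 1 passed, Atp1b3, a beta subunit of the sodium pump, with a log2 difference of 0.40 (adjusted p 0.046). Of 17 glucocorticoid response genes the 1 call was Cdkn1a, the cyclin-dependent kinase inhibitor p21, at 44.3, 83.3, 67.3, 36.5 and 33.3 in S2Ba and 31.8, 24.98, 16.4, 22.4 and 20.9 in SS (log2 difference 1.11, adjusted p 0.0363). Atp1b3 passed in 1 and Cdkn1a in 3 of the 10 fits without a library. Neither passed with clock covariates, at an adjusted p of 0.319 and 0.417.

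All 29 tested cell cycle genes had a positive log2 difference, with a median of 0.60, and 1 of them passed. Tyms, which makes thymidylate for DNA synthesis, read 13.3, 12.1, 12.6, 8.73 and 16.3 in S2Ba and 7.32, 10.2, 7.76, 7.6 and 7.08 in SS (log2 difference 0.61, adjusted p = 0.035). Mki67, a marker of dividing cells, had a log2 difference of 0.64 (adjusted p 0.313). With Tyms called in 2 of the 10 fits without a library, its adjusted p with clock covariates was 0.197. The summed level of the list was 177 to 622 in S2Ba and 179.9 to 272 in SS, with overlap. Without S2Ba replicate 1 or 6 the list median was 0.30 or 0.36, and with clock covariates it was 0.17 with 25 of 29 positive and 0 called.

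Among markers of striated muscle, which is no part of the aortic wall, 3 genes were lower in S2Ba. Ckm, muscle creatine kinase, read 2.27, 0.729, 0.333, 4.37 and 2.7 in S2Ba and 7.32, 8.96, 7.51, 4.21 and 6.99 in SS (log2 difference -1.78, adjusted p = 0.0252, 0.285 with clock covariates). Tnnt3, fast skeletal troponin T, read 4.46, 7.45, 9.91, 9.52 and 7.16 in S2Ba and 15.1, 13.7, 11.7, 12.1 and 9.63 in SS (log2 difference -0.69, adjusted p = 0.0441, 0.347 with clock covariates). Actc1, cardiac actin, read 0.325, 0, 0, 0.349 and 0.421 in S2Ba and 1.89, 0.911, 1.55, 0.743 and 2.39 in SS (log2 difference -1.45, adjusted p = 0.0141, 0.0853 with clock covariates). The summed skeletal list was 34.975 to 54.6 in S2Ba and 46.5 to 101 in SS. For the cardiac list the sums were 251.06 to 346.59 in S2Ba and 266.73 to 296.45 in SS. The median log2 difference was -0.30 for the skeletal list, with 0 of 5 positive. It was -0.013 for the cardiac list, with 1 of 3 positive. Beside 1.73% of all genes, 2 of 5 skeletal and 1 of 3 cardiac markers were called. Of the 10 fits without a library, Ckm passed in 5, Tnnt3 in 2 and Actc1 in 9. Lists of endothelium (17 tested), adipocytes (15), fibroblasts (12), smooth muscle (8), Schwann cells (6), erythroid cells (5) and mesothelium (3) had 0 calls.

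The same strains on normal salt differed at 36 genes (0.267%), 16 higher (0.119%) and 20 lower (0.148%) in S2Ba. SS replicates 1 and 2 on normal salt had 20924 and 22207 genes with at least 1 read, against 15645 to 17151 in all other libraries. Both enter the normal salt means, the salt changes in SS, the interaction and the shared spread. What they do to these results was not tested. The genes called on both diets were 7, all in the same direction, namely Ccdc109b, Slc39a8, Slc9b1, Ddah1 and Adh7 of chromosome 2, and Ddi2 and Meis1. They make up 3.004% of the high salt and 19.4% of the normal salt calls. Of the 233 high salt genes, 181 had the same sign on normal salt, but the median absolute log2 difference was 0.746 on high and 0.161 on normal salt. The 233 were selected on their high salt values, so a smaller normal salt median follows from the selection and measures no effect of diet. Across all genes tested, the log2 differences on the 2 diets had a Pearson correlation of 0.26. Among the last 164 tested genes of chromosome 2, 10 were called on normal salt and 13 on high salt.

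Whether the strain difference depended on diet was tested as an interaction, with 0 genes called by limma out of 13475, 1308 at an unadjusted p under 0.05, 1 by edgeR and 10 by DESeq2. The genes called on high salt and not on normal salt are therefore not shown to depend on the diet. Adh7, Slc9b1 and Slc39a8 had interaction p-values of 0.994, 0.959 and 0.857 after adjustment and log2 differences on normal salt of -2.16, -1.23 and 0.88, close to those on high salt.

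**Figure D5:**
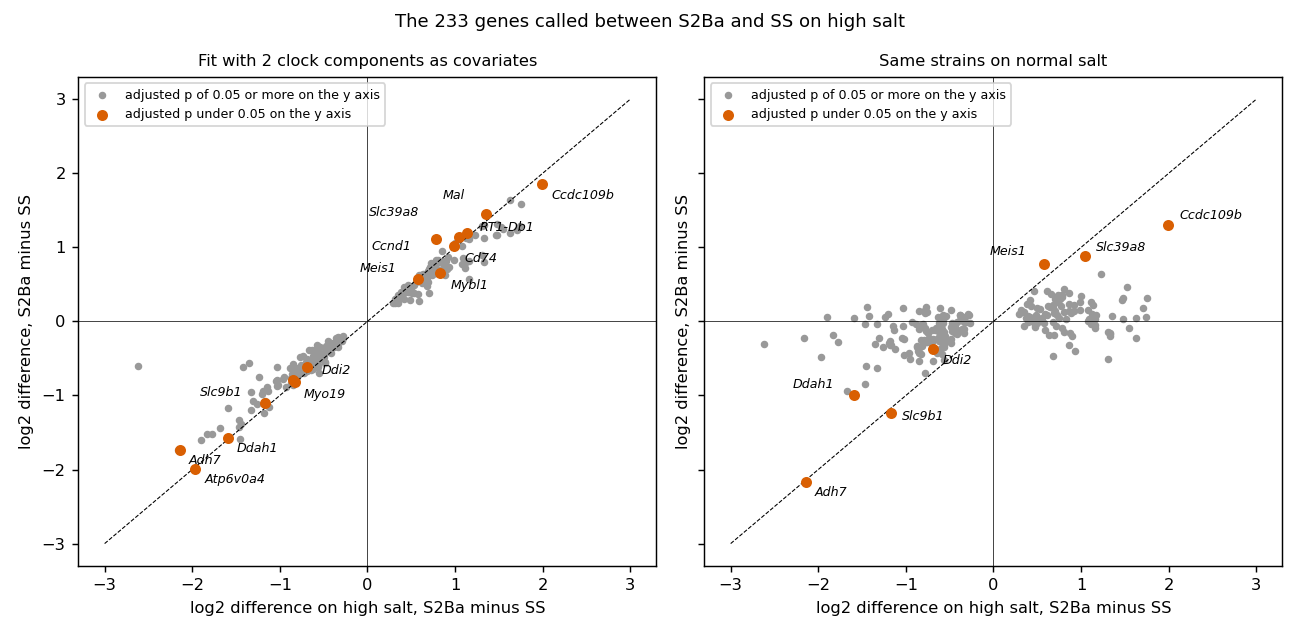
Log2 difference (S2Ba minus SS) of the 233 genes called on high salt, on the x axis, against the same difference with 2 clock components in the fit (left) and on normal salt (right), with the line of equality dashed and genes at an adjusted p under 0.05 on the y axis in orange. All 233 keep their sign on the left, where 15 are orange, and 7 are orange on the right, where most others lie near 0. The 233 were called on their x axis values, from which kept signs on the left and smaller differences on the right partly follow.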

How the data were processed

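Total RNA libraries of rat thoracic aorta were sequenced as paired reads on an Illumina HiSeq, per the labels' protocols. The submitters' processing notes name the aligner STAR 2.3.1, and also edgeR 3.6.8, R 3.2.3, FastQC and bcl2fastq 1.8.4, with no word on how each was used. Which build, annotation and counter the authors chose is not given in the sources. The authors deposited 1 signal per gene and library, reads divided by 1 size factor, and all values of the libraries used were whole multiples of 1 read (tolerance 0.01 reads). Rat reference assemblies come from BN, the donor of the segment; unequal alignment of BN and SS alleles was not tested.

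Values were tested as log2(value + 0.5) with limma 3.58.1 (intensity trend, R 4.3.3), 1 mean for each of 6 groups over 34 libraries, in the 13475 of 26106 genes with a mean of at least 0.5, with Benjamini-Hochberg adjustment and a threshold of 0.05. The design had foreseen counts with edgeR or, for normalised values, this fit. Recovered reads were tested with edgeR 4.0.16 and DESeq2 1.42.0 as alternatives, beside other pseudocounts, filters, scalings, clock covariates and leaving out each library. Of the listed genes 17796 were placed on chromosomes by symbol or synonym through RefSeq (GRCr8). Genes named are the 10 called each way at the lowest adjusted p, the 10 largest folds on chromosome 2, up to 4 called members of each list, all clock genes, Enpep and Hs2st1; other list members named did not decide a result. Some genes that meet these rules are not reported here. The comparison, gene lists and named-gene rule were chosen with earlier results of these data known. Standard errors and 95% intervals come from the limma fit and measure the spread between libraries.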

Additional observations from a re-analysis of the deposited data

Results flagged for a closer look

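For 90 genes, the 5 values of each strain were examined, which gave 180 sets from the same libraries. In 16 of them 1 library stood farther from the others than Dixon's test allows at its 95% level. The sets are not independent and many of the genes were chosen because they were called, so no chance rate is set beside this count. SS replicate 1 gave 4 of the values, namely Arntl at 74.3 (others 2.43 to 11.4), Npas2 at 75.8 (9.34 to 21.3), Nfil3 at 53.2 (3.18 to 8.61) and Nr1d2 at 24.3 (139 to 185). In the other SS libraries, replicate 2 stood apart for Hs2st1 at 24.1 (others 18.8 to 19.2) and for Tyms at 10.2 (7.08 to 7.76), and replicate 6 for Unc5c at 11.1 (5.54 to 6.69) and Cd14 at 12.5 (9.21 to 10.04). In S2Ba, replicate 3 stood apart for Myh11 at 9982.5 (8095 to 8244) and for the haemoglobin genes Hba-a2 at 492 (19.3 to 145) and Hbb at 956 (48.01 to 308). S2Ba replicate 5 was high for the immediate early genes Dusp1 at 1437 (316 to 602) and Btg2 at 496 (108 to 175). S2Ba replicate 1 was high for Myo19 at 19.1 (15.3 to 16.2), replicate 4 low for the receptor Adcyap1r1 at 2.91 (6.20 to 6.90), and replicate 6 high for the calcium pump Atp2a2 at 739.6 (663 to 683).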

How the results depend on the processing

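The count of 233 genes on high salt was 16 with clock covariates, 103 without a filter on low values (56 higher, 47 lower), 360 when the 10 libraries were fitted alone and 494 by DESeq2. It ranged from 47 to 448 when 1 library was left out. Of the 233 genes DESeq2 called 230, edgeR 202, the fit of the 10 libraries alone 170 and that with clock covariates 15. On normal salt DESeq2 called 156 genes against 36. The strain by diet interaction, 0 in the main setting, was 1 with a minimum mean of 5, 1 with TMM scaling, 1 by edgeR, 10 by DESeq2 and 0 to 3 with 1 library left out. Of 867 values for the 41 named called genes and Enpep under alternatives, 707 stayed on their side of the threshold. Another 160 lost the call and 0 turned sign. Clock covariates took 28 of these calls, Ciart and Hlf among them, and leaving out S2Ba replicate 4 took 19. The cause of the lost calls was not tested. Apart from Enpep, these genes were called in the same libraries, so a kept sign is no independent support. The median log2 difference of all genes tested was -0.0046 in the main fit, 0.015 with upper quartile scaling and 0.0063 with TMM scaling. No paired analysis was possible because the labels carry no numbers that link libraries across groups. A gene that did not pass at this depth and with 5 libraries a group is not shown to be alike in both strains.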

Other observations

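Several called genes outside the rule for named genes had large differences; they were chosen after their values were seen. Higher in S2Ba were Ibsp, the bone sialoprotein of mineralising matrix (log2 difference 1.74, limma adjusted p = 0.0175), Olr1, the scavenger receptor LOX-1 for oxidised low-density lipoprotein (1.71, adjusted p = 0.0388), the cadherin Cdh13 (1.34, adjusted p = 0.00686), Wnt16 (1.53, adjusted p = 0.0183) and the transcription factor Snai2 (1.08, adjusted p = 0.0141). Lower in S2Ba was Slc6a2, the noradrenaline transporter of sympathetic nerves (-2.16, adjusted p = 0.0292). With clock covariates the adjusted p of these genes lay between 0.0976 and 0.42, and of the 10 fits without a library Cdh13 was called in 10, Snai2 in 8, Ibsp in 7, Wnt16 in 6, Slc6a2 in 4 and Olr1 in 2. Thbs1, the matrix protein thrombospondin 1, read 68.2, 67.6, 93.3, 9.61 and 32.7 in S2Ba and 12.3, 11.6, 4.98, 9 and 6.22 in SS, and at a log2 difference of 2.28 it fell just short (adjusted p = 0.0502).

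The split of clock phase was also present in the other congenic strain on high salt. The first clock component was -3.17, -2.64, -2.50, 1.55, 8.03 and 8.63 in the 6 S2Bb libraries on high salt, with 2 libraries at the level of SS replicates 2 and 4. The normal salt libraries of all strains lay between -3.52 and 0.034.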
